A study of Mus musculus with 4 samples.

Results

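Expression of 36 genes of the unfolded protein response and of protein folding in the endoplasmic reticulum (ER) was examined in mouse intestinal organoids, cultures of intestinal epithelium grown in Matrigel. The genes were taken by symbol from 18193 genes represented on an Affymetrix array, and all 36 were among the 11392 genes bright enough to be compared. They comprised 4 sensors and transducers, 15 chaperones and folding factors, 10 genes of ER-associated degradation, 3 genes of translocation into the ER and 4 genes of translation control. The 4 groups were Tacc3 fl/fl organoids at day 6, Tacc3 wt/wt organoids at day 6, Tacc3 fl/fl organoids at day 4 and Tacc3 wt/wt organoids at day 4, with 1 array each. Every group, wt/wt included, had received 4OHT (4-hydroxytamoxifen) for 24 hours, the agent used to recombine Apc and Tacc3, so neither genotype was an untreated control. The sample descriptions call the day 4 organoids normal and the day 6 organoids Apc-deficient, whereas the design text has both genes recombined before either collection, so the state of Apc in each group was not settled by the labels. The promoter driving the recombinase, the floxed exons and the number of animals or cultures behind each array are not stated in the labels.

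The unfolded protein response lets a cell match the folding capacity of its ER to the load of secretory and membrane proteins. Misfolded protein in the ER releases the chaperone BiP from the sensors IRE1, PERK and ATF6: IRE1 splices the Xbp1 mRNA, PERK phosphorylates eIF2alpha and so slows translation while favouring that of ATF4, and ATF6 is cut to free a transcription factor. XBP1 and ATF6 act on chaperone and degradation genes, and ATF4 on the genes of the integrated stress response, among them Ddit3. In the intestinal epithelium the response is best known from the secretory Paneth and goblet cells. The arrays measure mRNA, and neither splicing of Xbp1 nor phosphorylation or cleavage of the sensors was measured.

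Promoter sequences are shown because the ER stress response element (ERSE) joins many of these genes to ATF6 and XBP1. RefSeq windows of the GRCm38.p6 build, 250 bases before to 50 after the start of each gene, were held for 31 of the 36 genes (not for Atf6, Hyou1, Manf, Derl1 and Sec61a1). The ERSE was searched as CCAAT, any 9 bases and CCACG on either strand, and was found in 9 of the 31 windows (29.0%), against 37 of 27025 windows in the whole table (0.137%). The shorter ERSE-II, ATTGG, 1 base and CCACG, was found in Dnajb11 and Herpud1 (6.45%), against 0.0444% of all windows. The letters of the element are in capitals, every line is written 5′ to 3′ on the strand of the gene, and ERSE matches on the opposite strand appear as CGTGG before ATTGG.
Hspa5 (chr2:34772017-34772051, + strand): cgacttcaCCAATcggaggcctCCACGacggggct
Hsp90b1, first match (chr10:86705630-86705664, - strand): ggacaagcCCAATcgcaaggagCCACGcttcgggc
Hsp90b1, another match (chr10:86705525-86705559, - strand): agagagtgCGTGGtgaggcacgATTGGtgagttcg
Calr (chr8:84847067-84847101, - strand): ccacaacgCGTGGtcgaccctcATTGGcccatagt
Canx (chr11:50325792-50325826, - strand): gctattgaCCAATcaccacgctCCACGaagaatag
Pdia6 (chr12:17266483-17266517, + strand): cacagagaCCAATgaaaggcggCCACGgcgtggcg
Dnajc3 (chr14:118937819-118937853, + strand): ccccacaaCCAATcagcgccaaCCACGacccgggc
Creld2 (chr15:88819512-88819546, + strand): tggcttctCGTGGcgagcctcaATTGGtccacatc
Syvn1 (chr19:6046524-6046558, + strand): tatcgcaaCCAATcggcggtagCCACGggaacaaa
Derl3 (chr10:75893234-75893268, + strand): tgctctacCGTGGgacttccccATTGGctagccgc
Dnajb11, ERSE-II (chr16:22857844-22857870, + strand): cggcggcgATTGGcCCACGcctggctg
Herpud1, ERSE-II (chr8:94386369-94386395, + strand): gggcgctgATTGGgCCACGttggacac

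The whole Hspa5 window, shown because Hspa5 encodes BiP itself, held 3 CCAAT and 1 CCACG on the strand of the gene, and its ERSE lay from 65 to 47 bases before the start.
Hspa5 (chr2:34771840-34772139, + strand): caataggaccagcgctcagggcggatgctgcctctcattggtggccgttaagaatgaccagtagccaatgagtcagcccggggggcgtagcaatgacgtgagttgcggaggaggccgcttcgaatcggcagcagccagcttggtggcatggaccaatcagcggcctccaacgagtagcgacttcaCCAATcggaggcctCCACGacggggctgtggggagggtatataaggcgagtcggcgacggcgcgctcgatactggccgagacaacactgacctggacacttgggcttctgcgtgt
The XBP1 element TGACGTGG was in none of the 31 windows and in 0.714% of all windows. The C/EBP-ATF element, TGATG, 1 base and AA, through which ATF4 and CHOP act, was in Herpud1 and Trib3 (6.45%) and in 4.51% of all windows. Both matches lay on the opposite strand, where the element reads TT, 1 base and CATCA.
Herpud1, C/EBP-ATF (chr8:94386309-94386332, + strand): acggcgggTTgCATCAgcccgcac
Trib3, C/EBP-ATF (chr2:152344031-152344054, - strand): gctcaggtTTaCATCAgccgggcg
A match describes these letters only and is no evidence that a factor was bound.

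Deposited intensities were compared as log2(intensity + 16), without further scaling, and a difference was counted where it reached 2-fold, 1 on that scale. Such a count has no test, since each group had 1 array. Array medians ran from 15.4 to 17.7 and the 95th percentiles from 303.0 in wt/wt day 4 to 439.0 in fl/fl day 6, so the arrays did not share 1 distribution. The ratio of 5′ to 3′ signal of Actb was 0.261 (fl/fl) and 0.180 (wt/wt) at day 6, and 0.0627 (fl/fl) and 0.0610 (wt/wt) at day 4. For Gapdh it was 0.524 (fl/fl) and 0.411 (wt/wt) at day 6, and 0.142 (fl/fl) and 0.208 (wt/wt) at day 4. Tacc3 read 49.7 in fl/fl and 167 in wt/wt organoids at day 6, and 59.8 in fl/fl and 184 in wt/wt organoids at day 4. All 10 epithelial markers were bright enough to be compared, with Krt8 reaching an intensity of 9385. Markers of plasma and B cells, professional secretory cells that also carry high ER chaperone levels, did not exceed 59.3, mesenchymal markers 45.6 and endothelial markers 25.6. Of the other immune markers Lyz2, which Paneth cells can also express, reached 2857, Cd14 94.6 and Cd3e 27.1. In such bulk cultures fewer cells of a type and less RNA per cell cannot be told apart.

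The genes did not share 1 pattern over the 4 arrays. The wt/wt day 4 array was the lowest for 26 of the 36 genes (72.2%), against 45.0% of all genes compared. It was the lowest for all 4 sensors and transducers, 13 of 15 folding genes, 7 of 10 degradation genes and 2 of 3 translocation genes, and for none of the 4 translation control genes. Since that array enters the genotype difference at day 4, the day difference in wt/wt organoids and the difference between the genotype differences, these share its error and do not bear one another out.

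**Figure D1:**
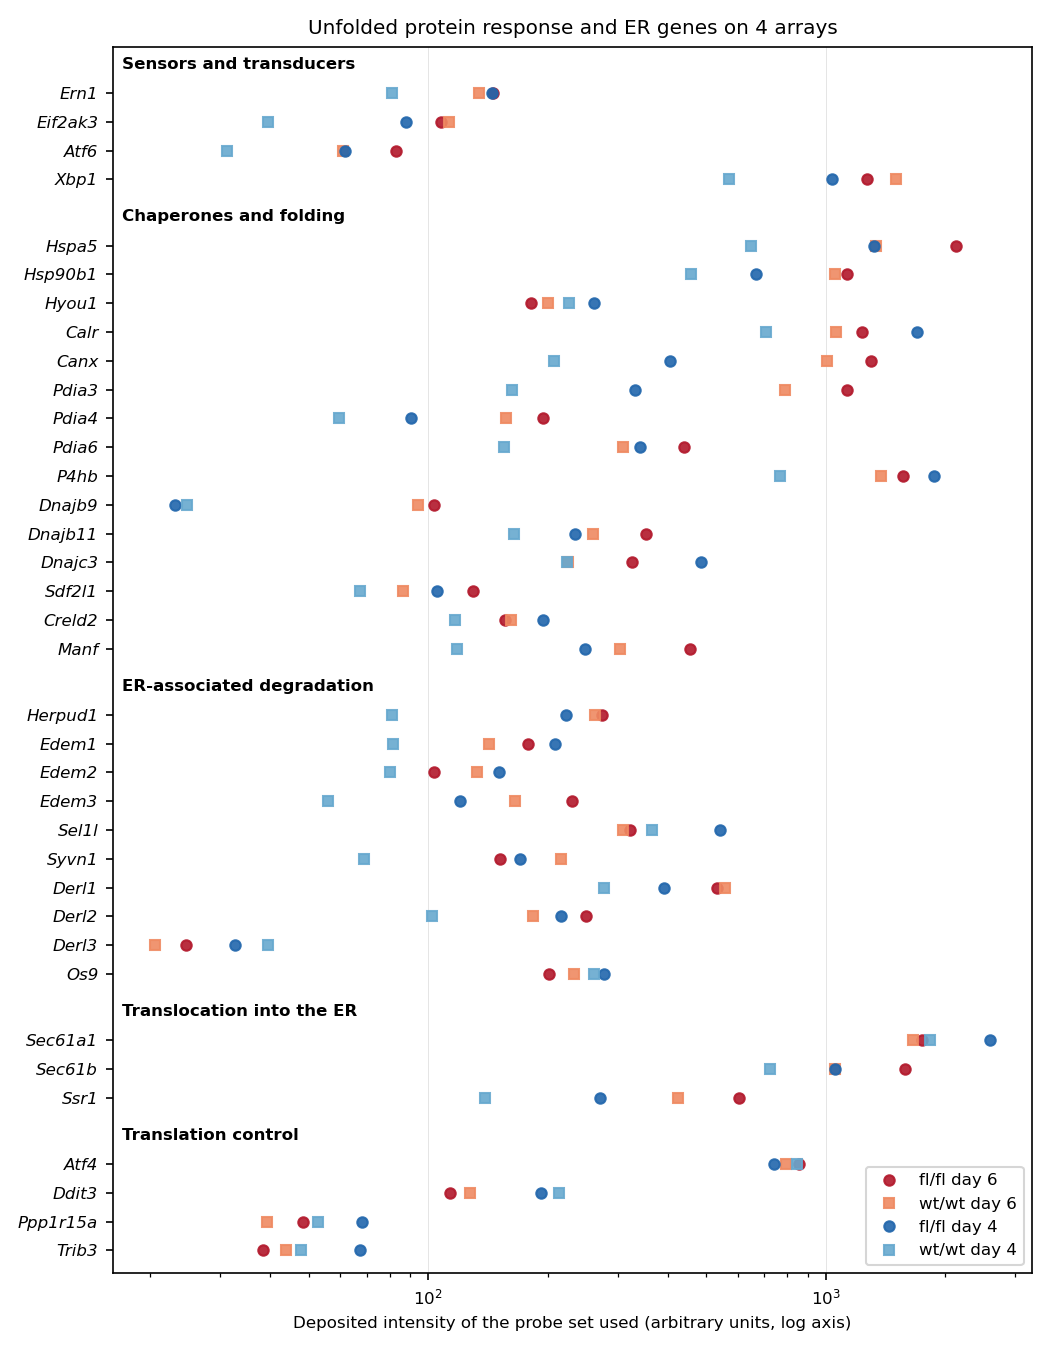
Deposited intensity (arbitrary units, log axis) of the probe set used for each of the 36 genes, by branch, with 1 point for each array. The light blue squares of wt/wt day 4 lie leftmost for 26 genes, but not for Atf4, Ddit3, Ppp1r15a or Trib3.

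Setting fl/fl against wt/wt organoids on each day addresses whether the response differed where Tacc3 was floxed. At day 6 no gene of the 36 differed 2-fold between the genotypes, whereas at day 4 it was 8, all higher in fl/fl organoids. The background was 0.211% of all genes 2-fold higher and 0.571% lower in fl/fl organoids at day 6, and 1.38% higher and 0.105% lower at day 4. The median difference over the 36 genes was 0.17 at day 6 and 0.72 at day 4, beside 0.05 and 0.15 over all genes. Differences above 0 were seen in 26 genes (72.2%, against 56.6% of all genes) at day 6 and in 32 (88.9%, against 66.7%) at day 4. With each array centred on its median gene, or with quantile normalization, 3 of the 36 genes (8.33%) stayed 2-fold higher at day 4, against 0.386% and 1.03% of all genes. These were Calr, P4hb and Herpud1 under both scalings.

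Hspa5 encodes BiP, the chief ER chaperone and the brake on the sensors. Its intensity was 2126 in fl/fl and 1335 in wt/wt organoids at day 6, and 1322 in fl/fl and 647 in wt/wt organoids at day 4. The genotype difference was thus 0.67 at day 6 and 1.01 at day 4, and the fl/fl value lay above the wt/wt value on both days. That reading came from 1 probe set, and the other probe sets of Hspa5 above the filter differed by -0.47 and 0.02 at day 4. Averaged over all its probe sets, the day 4 difference was 0.19.

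The lectin chaperones hold newly made glycoproteins until they are folded. Calr, the soluble lectin calreticulin, read 1232 in fl/fl and 1058 in wt/wt organoids at day 6, and 1691 in fl/fl and 707 in wt/wt organoids at day 4. Its difference was 0.22 at day 6 and 1.24 at day 4, and its other probe sets gave 0.93 and 1.13 at day 4, so all of them were higher in fl/fl organoids on that day. Canx, the membrane-bound lectin calnexin, differed by 0.37 at day 6 and 0.91 at day 4.

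Disulfide isomerases form and rearrange the disulfide bonds of secreted proteins. P4hb, the founding isomerase, read 1561 in fl/fl and 1373 in wt/wt organoids at day 6, and 1873 in fl/fl and 767 in wt/wt organoids at day 4, a difference of 0.18 at day 6 and 1.27 at day 4. Pdia6, an isomerase that also attenuates IRE1 and PERK, read 440 in fl/fl and 309 in wt/wt organoids at day 6, and 341 in fl/fl and 155 in wt/wt organoids at day 4. It differed by 0.49 at day 6 and 1.07 at day 4, and wt/wt day 4 was the lowest array for both genes. Pdia3, which works with the lectins, differed by 0.51 at day 6 and 0.96 at day 4, and Pdia4 by 0.28 and 0.49.

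Co-chaperones with a J domain recruit BiP to its clients. Dnajc3, which also inhibits eIF2alpha kinases, read 325 in fl/fl and 224 in wt/wt organoids at day 6, and 485 in fl/fl and 223 in wt/wt organoids at day 4, with both wt/wt arrays low. That pattern, and its differences of 0.51 at day 6 and 1.07 at day 4, came from the probe set used. Other Dnajc3 probe sets above the filter differed by -0.23 to 0.56 at day 6 and by 0.01 to 1.08 at day 4. Dnajb11 differed by 0.43 at day 6 and 0.47 at day 4, and Dnajb9, which represses IRE1, by 0.12 and -0.06. Among the remaining folding genes, the secreted ER stress factor Manf differed by 0.56 at day 6 and 0.98 at day 4, Sdf2l1, a partner of Dnajb11, by 0.51 and 0.54, and Hsp90b1, the ER member of the HSP90 family, by 0.10 and 0.53. Creld2, a gene induced by ER stress, differed by -0.04 at day 6 and 0.66 at day 4, and Hyou1, a nucleotide exchange factor of BiP, by -0.13 and 0.20 (-0.01 at day 4 after centring). In this branch 14 of 15 genes were above 0 at day 4, and the median was 0.37 at day 6 and 0.91 at day 4. The day 4 median was 0.70 after centring and 0.47 with averaged probe sets, those below the filter included.

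The sensors and transducers differed by -0.24 to 0.37 between genotypes at day 6 and by 0.72 to 0.90 at day 4, short of 2-fold. Xbp1, the transcription factor that IRE1 activates, read 1270 in fl/fl and 1505 in wt/wt organoids at day 6, and 1038 in fl/fl and 569 in wt/wt organoids at day 4. It differed by -0.24 at day 6 and 0.85 at day 4. Eif2ak3, which encodes PERK, read 108 in fl/fl and 113 in wt/wt organoids at day 6, and 87.6 in fl/fl and 39.6 in wt/wt organoids at day 4, with differences of -0.06 and 0.90. Ern1, which encodes IRE1 alpha, differed by 0.11 at day 6 and 0.72 at day 4, and Atf6 by 0.37 and 0.72. The median of this branch was 0.02 at day 6, or -0.01 after centring, and 0.79 at day 4. The day 4 median was 0.57 after centring and 0.35 with averaged probe sets. Xbp1 probe sets disagreed at day 4, with 0.38, -0.40 and 0.97 beside the 0.85 used, and at day 6 Xbp1 was 0.36 higher in fl/fl organoids without x_at and s_at probe sets.

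ER-associated degradation carries misfolded proteins out of the ER to the proteasome. Herpud1, a scaffold of the degradation complex, read 274 in fl/fl and 262 in wt/wt organoids at day 6, and 222 in fl/fl and 81.2 in wt/wt organoids at day 4. The 3 higher arrays lay close together and wt/wt day 4 stood below them, giving 0.06 at day 6 and 1.29 at day 4. Another Herpud1 probe set above the filter differed by -0.11 at day 6 and 0.41 at day 4. Syvn1, the ubiquitin ligase HRD1, read 152 in fl/fl and 216 in wt/wt organoids at day 6, and 171 in fl/fl and 69.0 in wt/wt organoids at day 4. Its difference was -0.47 at day 6 and 1.13 at day 4, the widest gap between days among the 36 genes, although its other probe set differed by 0.53 at day 4. Edem1, a mannosidase-like protein that marks misfolded glycoproteins, read 178 in fl/fl and 142 in wt/wt organoids at day 6, and 208 in fl/fl and 81.4 in wt/wt organoids at day 4, with differences of 0.30 and 1.20. Another Edem1 probe set above the filter differed by 0.13 at day 6 and 0.51 at day 4. The relatives of Edem1 differed at day 6 and day 4 by -0.31 and 0.79 (Edem2) and by 0.43 and 0.92 (Edem3).

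The other degradation genes act at the membrane channel or in recognising its clients. Derl2 and Derl1, members of the derlin family of the membrane channel, differed at day 6 by 0.42 and -0.06, and at day 4 by 0.97 and 0.48. Sel1l, the adaptor of HRD1, differed by 0.06 at day 6 and 0.56 at day 4, and the lectin Os9 by -0.19 and 0.08 (-0.14 at day 4 after centring). Derl3, another derlin, was dim, at 24.5 in fl/fl and 20.5 in wt/wt organoids at day 6, and 32.6 in fl/fl and 39.5 in wt/wt organoids at day 4. Over the 10 genes the median was 0.06 at day 6 and 0.86 at day 4. The day 4 median was 0.64 after centring and 0.47 with averaged probe sets. Of the translocation genes, the channel subunits Sec61a1 and Sec61b differed by 0.08 and 0.58 at day 6 and by 0.50 and 0.53 at day 4, and Ssr1, a subunit of the translocon-associated complex, by 0.50 at day 6 and 0.89 at day 4.

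Translation control had the lowest day 4 median of the 5 branches, 0.07 with a range of -0.19 to 0.39. That median turned to -0.14 after centring and -0.09 after quantile normalization, and was 0.08 with averaged probe sets. At day 6 the median of translation control was -0.02, or 0.10 without x_at and s_at probe sets. Atf4, the transcription factor favoured by PERK signalling, read 857 in fl/fl and 796 in wt/wt organoids at day 6, and 742 in fl/fl and 846 in wt/wt organoids at day 4. Ddit3, which encodes the stress factor CHOP, read 113 in fl/fl and 127 in wt/wt organoids at day 6, and 192 in fl/fl and 214 in wt/wt organoids at day 4. By the probe sets used, neither gene was higher in fl/fl organoids at day 4, at -0.19 for Atf4 and -0.14 for Ddit3. Another Atf4 probe set above the filter gave 0.07 on that day. Ppp1r15a, the phosphatase subunit that restores translation, differed by 0.22 at day 6 and 0.29 at day 4, and the pseudokinase gene Trib3 by -0.14 and 0.39.

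**Figure D2:**
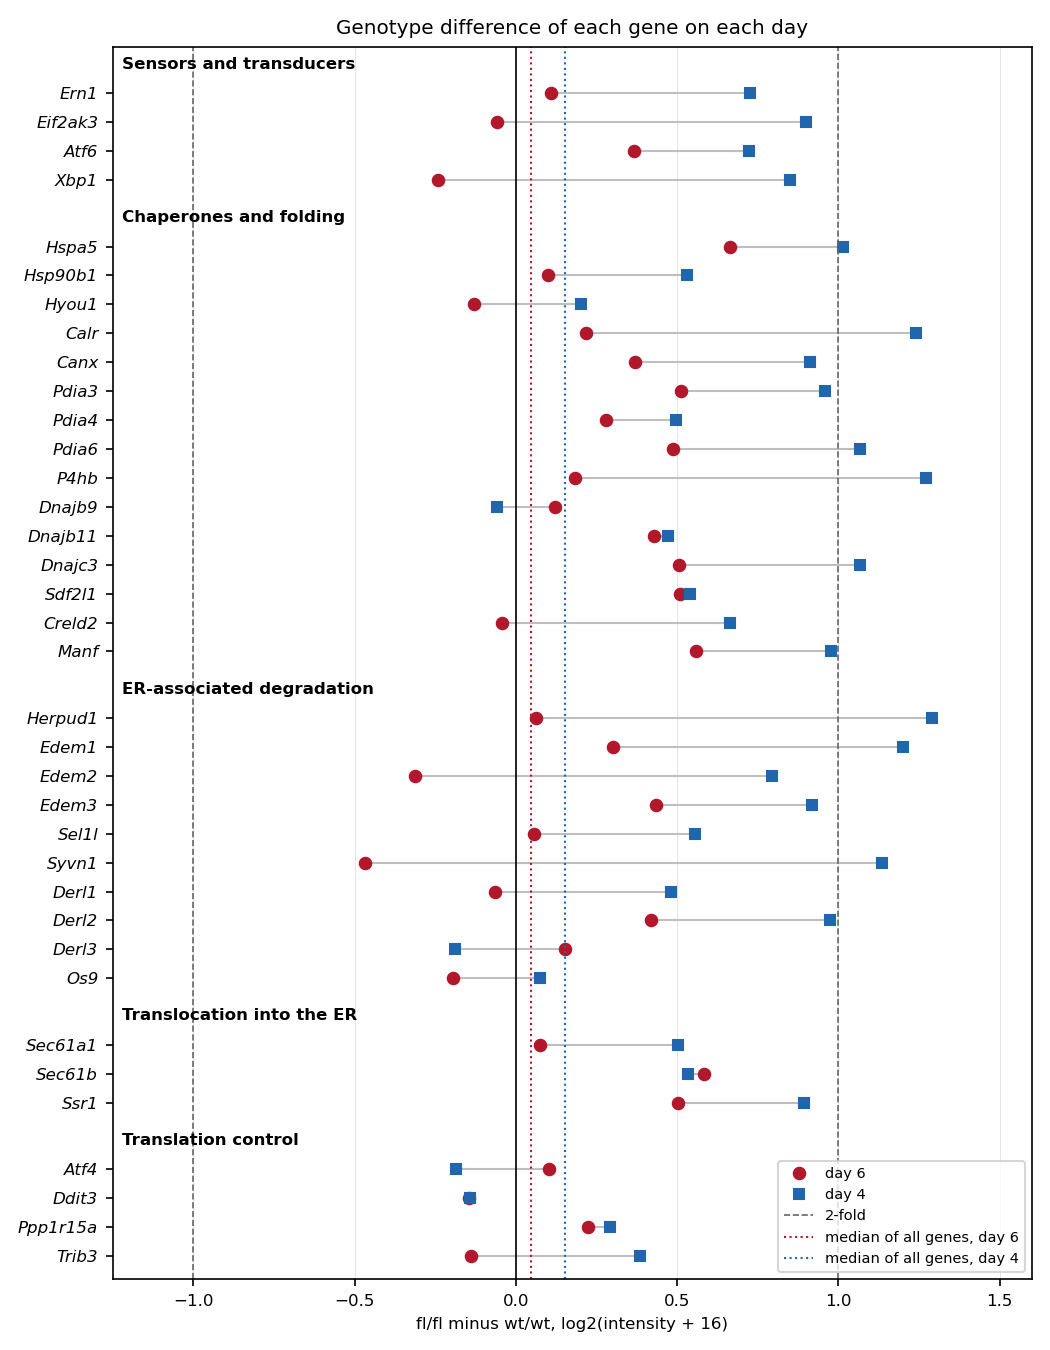
Difference between fl/fl and wt/wt organoids (log2 scale) of each gene at day 6 (red circles) and day 4 (blue squares), with dashed lines at 2-fold and dotted lines at the medians of all genes (0.05 at day 6, 0.15 at day 4). The day 4 squares of 8 genes lie past 2-fold, and no day 6 circle does.

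The genotype difference was smaller at day 6 than at day 4 in 32 of the 36 genes (88.9%), against 58.0% of all genes, with a median change of -0.47 against -0.09. It was smaller by at least 2-fold in 6 genes (16.7%, against 4.10%), namely Xbp1, Calr, P4hb, Herpud1, Edem2 and Syvn1, and larger by 2-fold in none (0.650% of all genes). With no replicates this change was not tested. An additive limma fit over all genes, which treats each day as a repeat of the genotype comparison, called none of the 36 genes by genotype after Benjamini-Hochberg adjustment, nor any of the 11392 genes (0.00%). At an unadjusted p under 0.05 the same fit had 15 of the 36 genes (41.7%) higher in fl/fl organoids, against 4.70% of all genes, and none lower, against 0.650%. Hspa5 had the smallest of these p-values, 0.0053 from limma for a difference of 0.84 ± 0.20 (SE), with an adjusted p of 0.784.

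Paneth, goblet and general epithelial markers moved with the day 4 genotype difference. All 7 Paneth markers matched of 11 listed, and 9 of 10 goblet markers, were above 0 at day 4, against 3 and 8 at day 6. Over all genes compared, 66.7% were above 0 at day 4 and 56.6% at day 6. The Paneth median was -0.01 at day 6 and 0.75 at day 4, and the goblet median 0.11 and 0.48. Summed Paneth intensity was 38242 in fl/fl and 41634 in wt/wt organoids at day 6, and 63186 in fl/fl and 45768 in wt/wt organoids at day 4. Summed goblet intensity was 16631 in fl/fl and 15607 in wt/wt organoids at day 6, and 32851 in fl/fl and 21777 in wt/wt organoids at day 4, so both sums were highest on the fl/fl day 4 array. Epithelial markers had a median of 0.22 at day 6 and 0.44 at day 4, close to the goblet value, with 9 of 10 above 0 on each day. Their summed intensity was 31226 in fl/fl and 27843 in wt/wt organoids at day 6, and 23506 in fl/fl and 17868 in wt/wt organoids at day 4. Enterocyte markers went the other way, with a median genotype difference of 0.72 at day 6 and -0.09 at day 4. Of these 9 markers, 9 were above 0 at day 6 and 3 at day 4. The 5′ to 3′ ratio of Gapdh, but not that of Actb, was lower in fl/fl than in wt/wt organoids at day 4. The part of these markers and of RNA quality in the genotype difference was not tested.

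**Figure D3:**
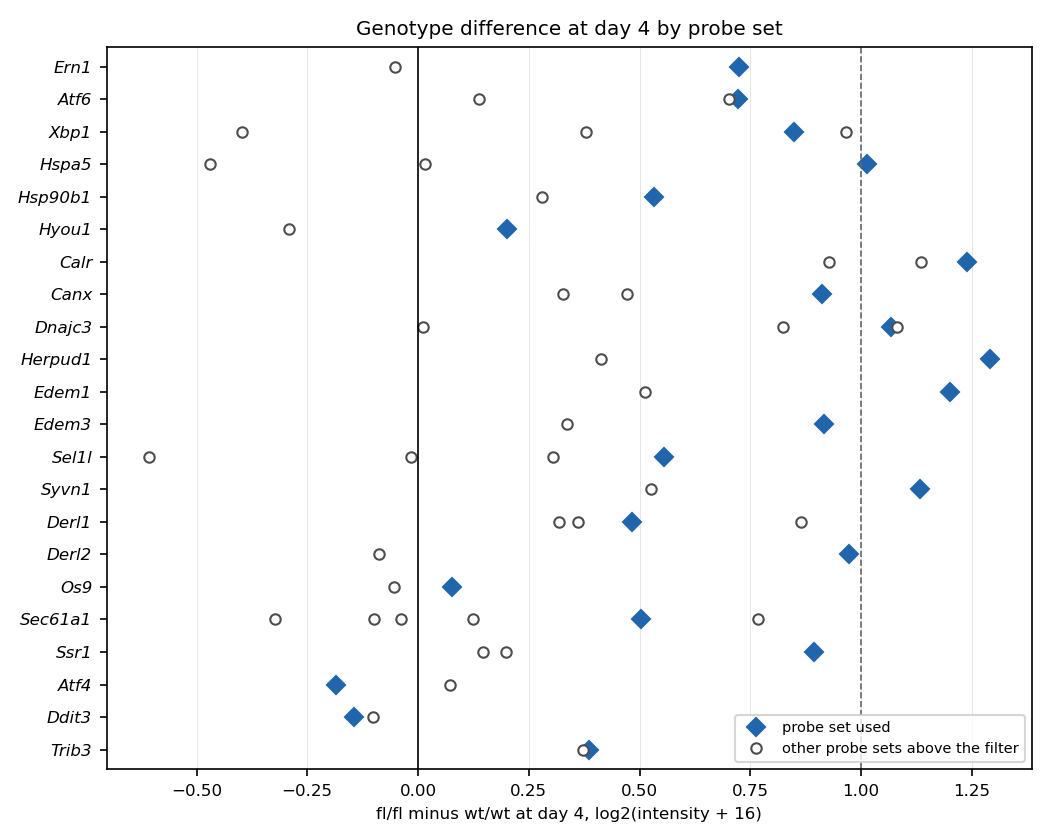
Difference between fl/fl and wt/wt organoids at day 4 (log2 scale) for the 22 genes with more than 1 probe set above the filter, as the probe set used (blue diamonds) and the others (open circles). The probe set used is often the rightmost, and 27 of the 39 others share its sign.

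Probe sets of a gene often differed in size. Of the 36 genes, 22 had another probe set above the filter, 39 in all, and at day 4 the sign of the genotype difference was shared by 27 of these 39. All probe sets had 1 sign in 13 of the 22 genes. Averaging probe sets took in those below the filter. When probe sets were averaged for each gene, 2 genes (5.56%), Calr and P4hb, were 2-fold higher in fl/fl organoids at day 4, against 0.656% of all genes. P4hb had no other probe set assigned to it, so averaging could not change its value. For Pdia6 no other probe set passed the filter.

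The comparison of day 6 with day 4 addresses what differed between the days, whose Apc state is unsettled as described above. In the additive limma fit, 9 of the 36 genes rose at day 6 (25.0%), against 22.8% of all genes, and 1 fell (2.78%), against 7.15%, so the share called was near the background. The number that fell depended on the scaling: quantile normalization gave 8 higher and 6 lower, and centring 10 higher and 9 lower. Hyou1, Dnajc3, Sel1l, Os9, Sec61a1 and Ddit3 were called lower under both scalings. The genes that rose were the folding genes Hspa5, Hsp90b1, Canx, Pdia3, Pdia4, Dnajb9 and Manf, the degradation gene Edem3 and the translocation gene Ssr1, and Ddit3 fell. This fit takes the genotypes as repeats and had 1 residual degree of freedom. By size alone, 4 genes were 2-fold higher at day 6 in fl/fl organoids (11.1%, against 12.2% of all genes) and 13 in wt/wt organoids (36.1%, against 18.3%), and none was 2-fold lower in fl/fl (2.90% of all genes) or in wt/wt organoids (2.97%), nor in both (1.35%). Differences above 0 were seen in 21 genes (58.3%, against 49.9% of all genes) in fl/fl and in 27 (75.0%, against 57.5%) in wt/wt organoids. The median difference was 0.23 in fl/fl organoids, which turned to -0.04 after quantile normalization, and 0.70 in wt/wt organoids, beside 0.00 and 0.17 over all genes. In wt/wt organoids 6 of the 36 genes (16.7%) were 2-fold higher after centring, against 9.20% of all genes, 6 with quantile normalization, against 10.4%, and 6 with averaged probe sets, against 11.5%.

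The 4 genes 2-fold higher at day 6 in both genotypes (11.1%, against 9.37% of all genes) were Canx, Pdia3, Dnajb9 and Ssr1. Canx read 1302 in fl/fl and 1004 in wt/wt organoids at day 6, and 405 in fl/fl and 208 in wt/wt organoids at day 4. It rose by 1.92 ± 0.22 (SE) with a limma adjusted p of 0.0044, and its other probe sets were also higher at day 6 in both genotypes, by 0.83 to 2.04. Pdia3 read 1131 in fl/fl and 789 in wt/wt organoids at day 6, and 331 in fl/fl and 162 in wt/wt organoids at day 4, a rise of 1.95 ± 0.21 (limma adjusted p = 0.0041). The lectin chaperone and its partner isomerase were therefore higher at day 6 in both genotypes. Dnajb9 read 104 in fl/fl and 94.1 in wt/wt organoids at day 6, and 23.1 in fl/fl and 24.8 in wt/wt organoids at day 4. The rise of 1.52 ± 0.19 (limma adjusted p = 0.0050) came from differences of 1.61 in fl/fl and 1.43 in wt/wt organoids. Ssr1 rose by 1.31 ± 0.20 (limma adjusted p = 0.0074), but another of its probe sets differed by -1.04 in wt/wt organoids, and with the mean of probe sets it was no longer called (limma adjusted p = 0.18, with a range of 0.00020 to 0.18 over the 8 alternatives).

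The other genes that rose did so by less. Manf rose by 1.04 ± 0.21 (limma adjusted p = 0.014) and read 455 in fl/fl and 304 in wt/wt organoids at day 6, and 248 in fl/fl and 118 in wt/wt organoids at day 4. Pdia4 rose by 1.09 ± 0.19 (limma adjusted p = 0.011), Edem3, a relative of Edem1, by 1.09 ± 0.21 (0.013) and Hsp90b1 by 0.96 ± 0.21 (0.018). Hspa5 rose by 0.85 ± 0.20 (limma adjusted p = 0.024), yet its fl/fl day 4 intensity of 1322 was level with the 1335 of wt/wt day 6, and its call was lost with quantile normalization, with averaged probe sets and without the filter. The calls of Hsp90b1 and Pdia4 were lost with averaged probe sets, and those of Hsp90b1, Manf and Edem3 without the filter. The other probe set of Pdia4 lay below the filter. Canx, Pdia3 and Dnajb9 were the genes called in all 8 alternative settings. Ddit3 fell by 0.68 (SE 0.19, limma adjusted p = 0.039), with a difference of -0.68 in each genotype, and was called in 4 of the 8 settings. Its other probe set, also above the filter, did not show this fall, at 0.16 in fl/fl and -0.04 in wt/wt organoids.

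Among the remaining genes several differed in opposite directions between days in the 2 genotypes, which was not tested. Calr, P4hb, Dnajc3, Creld2, Edem1, Edem2 and Syvn1 were lower at day 6 than at day 4 in fl/fl organoids, by log2 differences of -0.55 to -0.15, and higher in wt/wt organoids, by 0.0071 (Dnajc3, or -0.38 after centring) to 1.45 (Syvn1). Averaged probe sets turned the fl/fl value of Dnajc3 to 0.13 and that of Edem1 to 0.24, leaving out x_at and s_at probe sets turned that of Syvn1 to 0.05, and quantile normalization turned the wt/wt value of Creld2 to -0.05. Atf4 ran the other way, at 0.20 in fl/fl organoids (-0.09 with quantile normalization) and -0.09 in wt/wt organoids. Another Atf4 probe set above the filter was lower at day 6 in both genotypes, at -0.69 in fl/fl and -0.38 in wt/wt organoids. Beside the genes that rose, Eif2ak3, Xbp1, Herpud1 and Syvn1 were 2-fold higher at day 6 in wt/wt organoids, by 1.21, 1.38, 1.52 and 1.45, against 0.26, 0.29, 0.29 and -0.15 in fl/fl organoids, and none passed the fit. Without x_at and s_at probe sets Xbp1 was 2-fold higher in both genotypes, at 1.55 in fl/fl and 2.15 in wt/wt organoids, and it was called in 2 of the 8 settings. Averaged probe sets gave 0.11 for Eif2ak3 in wt/wt organoids, but that average took in its other probe sets, which all lay below the filter. Leaving out x_at and s_at probe sets gave 0.71 for Syvn1 in wt/wt organoids. The contrasts of Xbp1 and Syvn1 between genotypes thus depended on the probe set. Hyou1, Sel1l, Os9, Sec61a1, Derl3, Ppp1r15a and Trib3 were lower at day 6 in both genotypes by the probe sets used, each by less than 2-fold. Other probe sets above the filter disagreed in sign for Sel1l and Sec61a1. In fl/fl organoids they ran from -0.26 to 0.55 for Sel1l and from -0.41 to 0.13 for Sec61a1. The wt/wt ranges were -1.02 to 0.48 for Sel1l and -0.38 to 0.22 for Sec61a1. By branch, the median day difference in fl/fl and wt/wt organoids was 0.27 and 0.96 for sensors, 0.57 and 0.93 for folding, -0.18 and 0.72 for degradation, 0.58 and 0.53 for translocation and -0.50 and -0.21 for translation control. With averaged probe sets, those below the filter included, the fl/fl median turned to -0.05 for sensors and 0.06 for degradation. The wt/wt median of sensors was then 0.18.

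**Figure D4:**
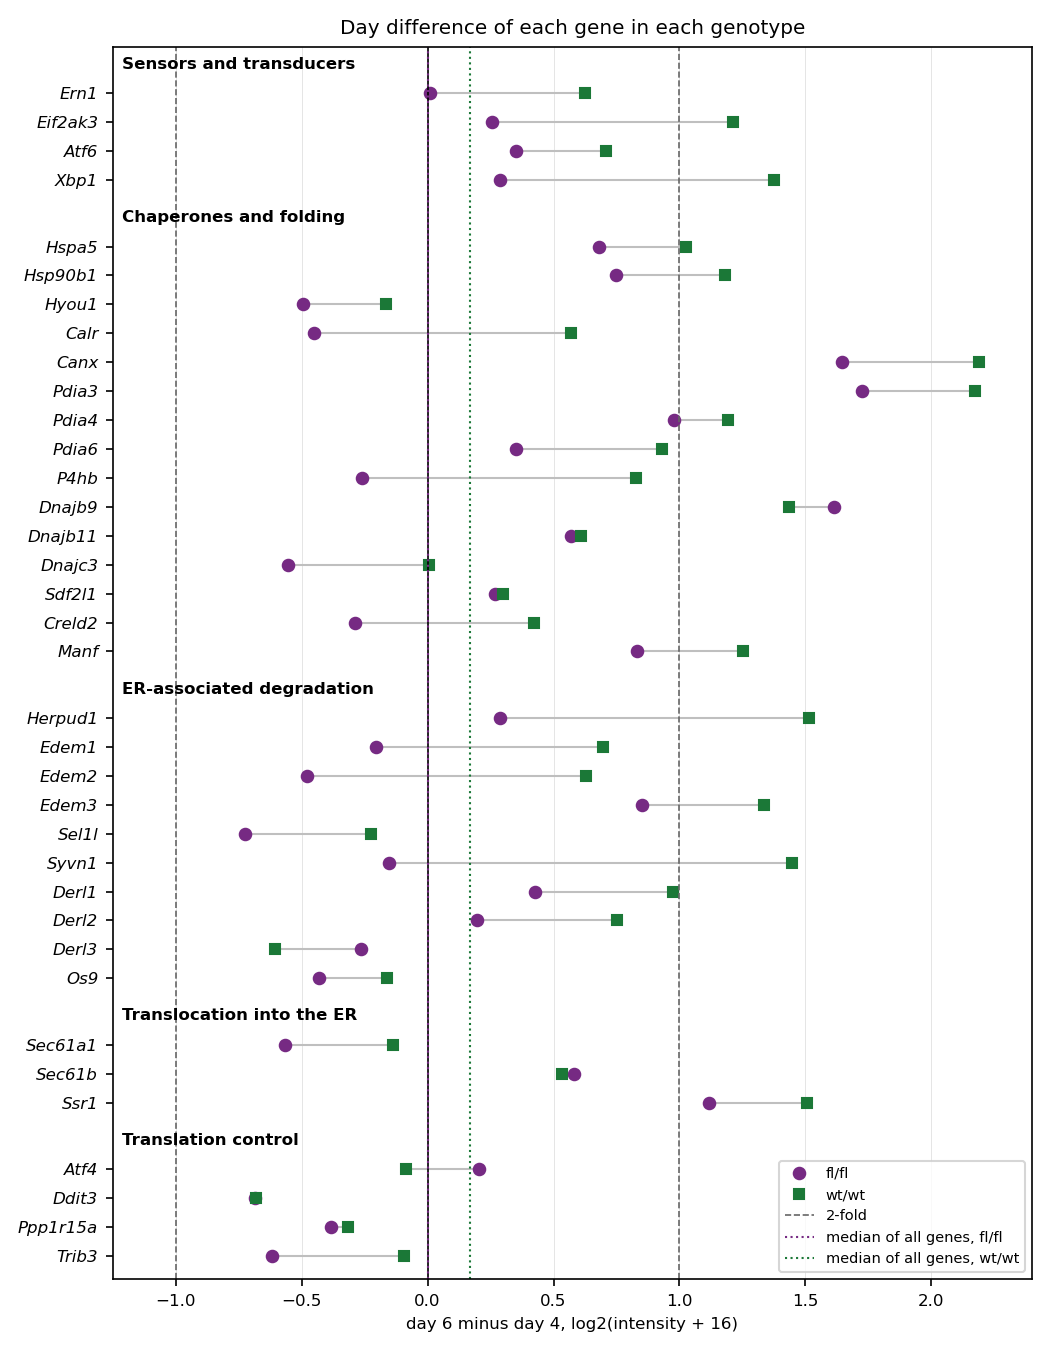
Difference between day 6 and day 4 (log2 scale) of each gene in fl/fl (purple circles) and wt/wt organoids (green squares), with dashed lines at 2-fold and dotted lines at the medians of all genes, which in fl/fl organoids coincides with 0. Canx, Pdia3, Dnajb9 and Ssr1 lie past 2-fold in both genotypes.

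The days also differed in cell type markers and in RNA quality. Enterocyte markers had a median day difference of 2.45 in fl/fl and 1.57 in wt/wt organoids, all 9 being higher at day 6, and their summed intensity was 10359 in fl/fl and 6832 in wt/wt organoids at day 6, and 1402 in fl/fl and 1279 in wt/wt organoids at day 4. Epithelial markers had medians of 0.64 in fl/fl and 0.98 in wt/wt organoids, near those of the folding branch (0.57 and 0.93). With averaged probe sets the epithelial medians were 0.70 and 0.98, and those of the folding branch 0.35 and 0.53. Paneth markers had medians of -1.16 in fl/fl and -0.53 in wt/wt organoids, and goblet markers of -0.26 in fl/fl and 0.28 in wt/wt organoids, which turned to -0.11 after centring and -0.19 with quantile normalization. Both Actb and Gapdh had higher 5′ to 3′ ratios at day 6 in both genotypes. What part these had in the rise of the folding genes was not tested.

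For the 11 genes whose window held an ERSE or ERSE-II, the median genotype difference was 0.22 at day 6 and 1.01 at day 4, with 6 genes 2-fold higher at day 4. The 20 genes with a window and neither element had medians of 0.15 and 0.64, with 2 genes 2-fold higher. Over all genes compared, 1.38% were 2-fold higher at day 4. With averaged probe sets or a pseudocount of 64, only Calr, with an element, and P4hb, without, stayed 2-fold higher. Averaging could not change P4hb, which had no other probe set. Centring or quantile normalization also kept Herpud1, which has an element. The sets spanned almost the same day 4 range, from -0.19 (Derl3) to 1.29 (Herpud1) with an element and from -0.19 (Atf4) to 1.27 (P4hb) without. No test was made of this difference between the sets.

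**Figure D5:**
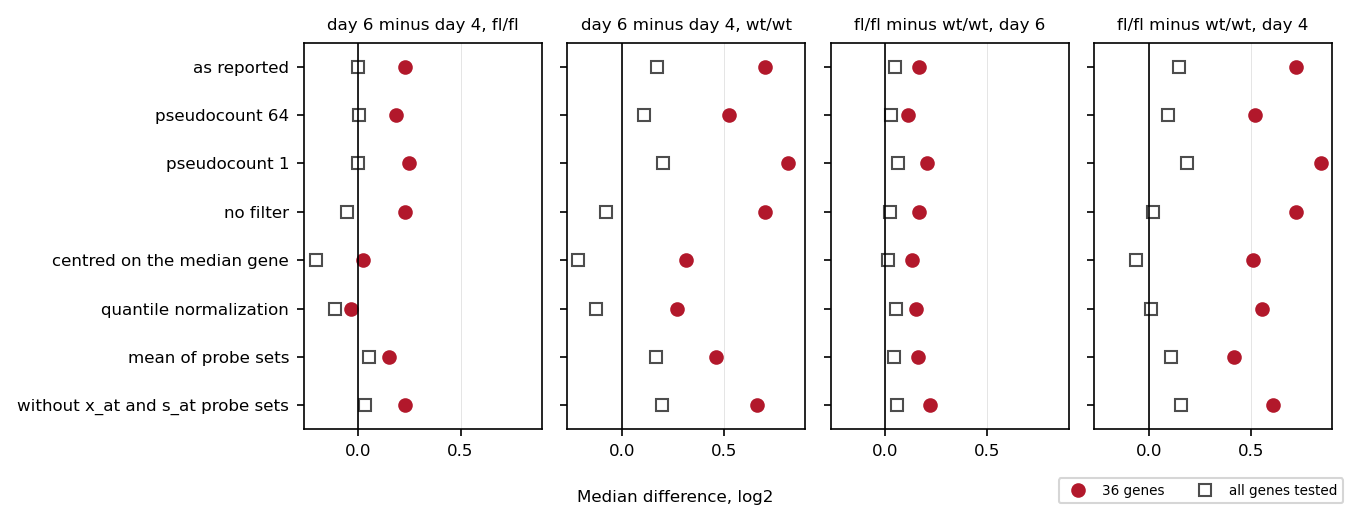
Median difference (log2 scale) of the 36 genes (red circles) and of all genes tested (open squares) in each comparison, as reported and under 7 alternative settings. The circles lie right of the squares in every row, while in fl/fl organoids the day median of the 36 genes crosses 0 with quantile normalization.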

How the data were processed

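Total RNA (100 ng) was labelled with a 3′ in vitro transcription kit per the labels' protocols and measured on 4 arrays, 1 in each group named by the titles. The authors deposited linear intensity values, 45101 probe sets on each array; how they were summarised and normalized is not given in the sources used here. The platform table gave 1 symbol for 34958 probe sets, of which 34754 were updated through the Entrez ID (RefSeq, GRCm38.p6), several for 932 and left 9211 unlisted. Each gene took the probe set with the highest mean of log2(intensity + 16), and genes at or above the median probe set (log2 5.04, intensity 16.9) were compared. Differences between single arrays have no test and understate dim genes; their number limits precision. Genotype and day were fitted additively with limma 3.58.1 in R 4.3.3 and adjusted by Benjamini-Hochberg over all 11392 genes at 0.05. Nothing says that arrays came from separate animals. The only residual of the fit is the change of each gene's genotype difference between days. Its variance is drawn by limma toward a value shared by all genes. The SEs and p-values therefore do not measure the spread between replicates of a group.

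The 36 genes and all lists were chosen with earlier results of these data known. All 36 genes are named; genes of the further pathway lists are named where 2-fold in 1 direction in both genotypes between days (up to 5 a list and direction) or 2-fold between genotypes. Alternatives were pseudocounts of 64 and 1, no filter, centring each array on its median gene, quantile normalization, the mean of probe sets, leaving out x_at and s_at probe sets, and an intensity trend in limma, 8 in all. Sequences are RefSeq's (GRCm38.p6), searched in Python 3.11.15.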

Additional observations from a re-analysis of the deposited data

How the results depend on the processing

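With 1 array in each group no replicate error exists, and dim genes have little room to differ on this scale. No paired analysis was possible because the labels give no replicate numbers by which to pair arrays, with 1 array a group; the additive fit itself keeps day as a term for genotype and genotype as a term for day. Leaving out an array would end a comparison. Of the single-gene differences recomputed, 943 kept their side of 2-fold, 55 dropped under it, 10 went past it, and no difference past 2-fold changed sign. The day median in fl/fl organoids (0.23) turned to -0.0384 with quantile normalization and was 0.0231 after centring. The number of genes 2-fold between days in fl/fl organoids (4) was 2 with the mean of probe sets. In wt/wt organoids the day median (0.70) was 0.52 with a pseudocount of 64, 0.81 with a pseudocount of 1, 0.32 after centring, 0.27 with quantile normalization and 0.46 with the mean of probe sets; the 13 genes 2-fold were 8 with a pseudocount of 64, 7 after centring and 7 with quantile normalization (6 higher and 1 lower in each), and 6 with the mean of probe sets. The genotype median at day 4 (0.72) was 0.52 with a pseudocount of 64, 0.85 with a pseudocount of 1, 0.51 after centring, 0.55 with quantile normalization, 0.42 with the mean of probe sets and 0.61 without x_at and s_at probe sets; the 8 genes 2-fold were 2, 13, 3, 3 and 2 under the first 5 of these. The median change of the genotype difference between days (-0.47) was -0.36 with a pseudocount of 64, -0.29 after centring, -0.35 with quantile normalization and -0.23 with the mean of probe sets. The 10 genes called by day in limma were 5 without the filter, when 18193 genes were tested, and 19 after centring (10 higher and 9 lower). Over all genes limma called 3412 by day, 2598 higher and 814 lower; after centring it called 5607 (2170 higher, 3437 lower), with quantile normalization 4275 (2032 higher, 2243 lower) and without the filter 1809. By genotype it called 0 of all genes, 10 after centring and 1 with quantile normalization. Centring moved the median of all genes from 0.17 to -0.22 for the day difference in wt/wt organoids, from 0.00 to -0.21 in fl/fl organoids and from 0.15 to -0.06 for the genotype difference at day 4. The cause of these shifts was not tested.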

Other observations

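Further genes of the same pathways, in lists that hold none of the 36, were also compared. The median genotype difference at day 4 was 0.53 over 27 genes of translocation and glycosylation, 0.52 over 26 folding genes, 0.39 over 29 genes of the integrated stress response, 0.34 over 15 sensors and transducers and 0.25 over 22 degradation genes, beside 0.15 over all genes. No gene of these lists was 2-fold between genotypes at day 6, beside 0.211% of all genes higher and 0.571% lower in fl/fl organoids. The count higher at day 4 was 3 of 26 folding genes and 2 of 27 translocation and glycosylation genes, beside 1.38% of all genes. It was 1 of 29 integrated stress response genes. At day 4 the isomerase Txndc5 was higher in fl/fl organoids by 1.07, the ER prolyl isomerase Fkbp11 by 1.05, the HSP70 relative Hspa13 by 1.07, the translocon-associated Ssr4 by 1.09, the oligosaccharyltransferase subunit Rpn2 by 1.01 and Slc3a2, the heavy chain of amino acid transporters, by 1.20. Fkbp11 read 45.7 in fl/fl and 29.2 in wt/wt organoids at day 6, and 155 in fl/fl and 66.8 in wt/wt organoids at day 4.

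Between days, limma called 11 of 27 translocation and glycosylation genes higher at day 6 and none lower, and of the 29 integrated stress response genes 3 higher and 10 lower. Of the other lists it called 4 of 15 sensors and transducers higher and 2 lower, 5 of 26 folding genes higher and 2 lower, and 6 of 22 degradation genes higher and 2 lower, beside 22.8% higher and 7.15% lower over all genes. Genes 2-fold higher at day 6 in both genotypes were Nfe2l2, the oxidative stress factor NRF2, the selenoprotein gene Selenof, the ubiquitin ligases Marchf6, Rnf5 and Rnf139, Erlin1, the signal peptidase subunit Spcs1, Ssr3, the oligosaccharyltransferase catalytic subunit Stt3b and Ppp1r15b, the constitutive relative of Ppp1r15a. They were 4 of 22 degradation genes and 3 of 27 translocation and glycosylation genes, beside 9.37% of all genes. The rest were 1 of 15 sensors and transducers, 1 of 26 folding genes and 1 of 29 integrated stress response genes. Ppp1r15b read 421 in fl/fl and 361 in wt/wt organoids at day 6, and 151 in fl/fl and 72.1 in wt/wt organoids at day 4. Sesn2, a stress-induced inhibitor of mTORC1, was 2-fold lower in both genotypes, at 45.0 in fl/fl and 35.0 in wt/wt organoids at day 6, and 137 in fl/fl and 110.1 in wt/wt organoids at day 4. It was 1 of the 29 integrated stress response genes, beside 1.35% of all genes 2-fold lower in both genotypes.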
